A study of Mus musculus with 6 samples.

Results

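Genes of the citrate cycle, of the pyruvate dehydrogenase complex that feeds it and of the reactions that refill it were described in subcutaneous white fat of mice. The list held 33 genes, chosen with earlier results of these data known, and 28 of them were measured among the 12394 genes of the array. Counts of members set beside shares of all genes are therefore descriptions and no test of the list. Pdhx, Pdp1, Pdp2, Pdpr and Me3 were not analysed here, so the phosphatases that activate pyruvate dehydrogenase are not covered. Each gene was represented by the probe set with the highest mean over all arrays. RNA of 6 samples was hybridised to Affymetrix arrays, 3 from control mice (YY1flox/flox) and 3 from mice labelled YY1bKO (YY1flox/flox; Ucp1Cre). All mice were 8 weeks old, had a mixed C57BL6 and 129 background and had eaten a high fat diet for 2 weeks. Both groups thus carried the floxed alleles of Yy1, the gene of the transcription factor YY1, and differed by a Cre driven by Ucp1 sequences, which act mainly in thermogenic adipocytes. The labels name no group with Cre alone, and whether each replicate is a separate animal is not stated, which means that p-values refer to the scatter among these arrays only.

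The citrate cycle oxidises acetyl-CoA in the mitochondrial matrix and passes the electrons to the respiratory chain as NADH and reduced flavin. Pyruvate dehydrogenase makes that acetyl-CoA from pyruvate, and its kinases switch it off by phosphorylation, which spares glucose when fatty acids are burned. Carboxylation of pyruvate and oxidation of glutamate refill the cycle, and the malate-aspartate enzymes carry reducing equivalents between cytosol and mitochondria. In fat the same enzymes serve both heat production in thermogenic adipocytes and the export of citrate for lipid synthesis in white adipocytes.

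Values are deposited intensities on the log2(intensity + 1) scale unless an intensity is named, and a difference is the YY1bKO mean minus the control mean. A brightness of a probe set reflects its probes as well as its transcript, so levels are not compared between genes. The tissue was labelled white fat, and the 7 measured white adipocyte markers had log2 values from 10.13 (Pparg) to 14.65 (Fabp4), above the median probe set of every array. Yy1 itself had a difference of -0.24 (95% confidence interval -0.54 to 0.06), and Ucp1 one of 5.25. Marker lists showed that samples differed in other tissue. The epithelial list of 6 genes stood at 3.98 above its mean over arrays in control replicate 2 and between -1.09 and -0.15 in the other arrays. The skeletal muscle list of 11 genes stood at 2.41 in YY1bKO replicate 1 and between -0.60 and -0.25 elsewhere, and the B cell list of 5 genes ran from -2.48 in YY1bKO replicate 1 to 2.34 in control replicate 3. In whole tissue, more cells of a type and more RNA per cell cannot be told apart.

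All 13 measured enzymes of the mitochondrial cycle had a higher mean in YY1bKO fat, by 0.08 to 0.71 on the log2 scale with a median of 0.45. Of all genes 51.0% had a higher mean, and their median difference was 0.0046. Ogdh, Idh2 and Idh3a had the largest differences of the 13 and the GDP-forming succinyl-CoA synthetase subunit Suclg2 the smallest. In 11 of the 13 every YY1bKO array lay above every control array, which held for 11.5% of all genes, and Dld and Suclg2 were the exceptions. In 10 of the 13 limma gave an unadjusted p under 0.05 with YY1bKO higher, against 8.45% of all genes. After Benjamini-Hochberg adjustment over the 12394 genes, 0 of the 28 members passed 0.05 by limma, as did 0.0323% of all genes, so no single member is called changed. Over all 28 members, 12 were higher at an unadjusted p under 0.05 and 0 were lower, against 1.99% of all genes that were lower, and the smallest adjusted p was 0.128.

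**Figure D1:**
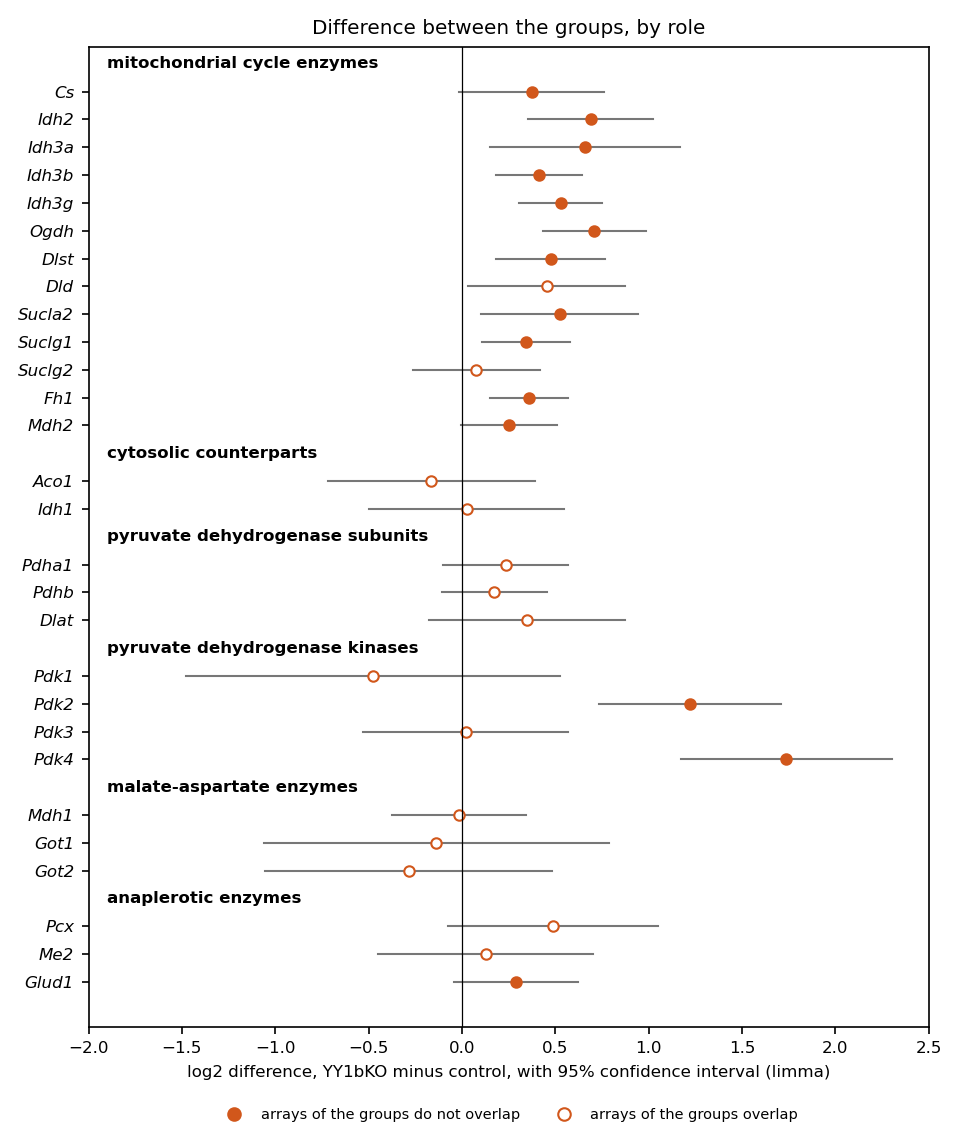
Log2 difference of each measured gene between YY1bKO and control fat, with the 95% confidence interval of limma (n = 3 arrays per group), grouped by role. Filled points mark genes whose arrays do not overlap between groups, 14 of 28, of which 11 are mitochondrial cycle enzymes. YY1bKO fat was higher in all 14 and lower in 0, where 11.5% of all genes were higher without overlap.

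Ogdh, the E1 subunit of the oxoglutarate dehydrogenase complex and a control point of the cycle, had intensities of 869.7, 884.7 and 767.2 in control and of 1299, 1294.7 and 1537.7 in YY1bKO fat. The lowest YY1bKO array thus lay 0.55 log2 units above the highest control. Its log2 mean went from 9.71 ± 0.11 to 10.42 ± 0.14 (SD, n = 3 each), a difference of 0.71 ± 0.11 (SE; limma adjusted p = 0.147), and it ranked 61st of all genes by p. Dlst, the E2 subunit that carries the succinyl group, differed by 0.48 ± 0.12, and Dld, the E3 subunit shared with pyruvate dehydrogenase, by 0.45 ± 0.17. The E1 to E3 genes of the complex thus each had a higher mean, although Dld overlapped between groups, with 10.33 in control replicate 1 against 10.31 in YY1bKO replicate 2.

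The NAD-dependent isocitrate dehydrogenase is built of a catalytic subunit, Idh3a, with Idh3b and Idh3g, and its step commits isocitrate to oxidation. Idh3g had log2 values of 11.48, 11.40 and 11.28 in control and of 11.95, 11.88 and 11.93 in YY1bKO fat. The groups were separated by 0.40, and the SD was 0.04 in YY1bKO and 0.10 in control fat. The difference was 0.53 ± 0.09 (SE; limma adjusted p = 0.152). Idh3b differed by 0.41 ± 0.10 and Idh3a by 0.66 ± 0.21. The controls of Idh3a were the more scattered, at 12.12, 11.31 and 11.59, and its 3 probe sets agreed on differences from 0.63 to 0.66.

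Idh2, the mitochondrial NADP-dependent isocitrate dehydrogenase, had intensities of 886.7, 660.1 and 668.9 in control and of 1227.5, 1146.2 and 1168.8 in YY1bKO fat. Every YY1bKO array was above every control array, and control replicate 1 was the closest to them. The log2 difference was 0.69 ± 0.14 (SE; limma adjusted p = 0.201), a ratio of 1.61.

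The other 6 cycle enzymes differed by 0.08 to 0.52. Cs, citrate synthase, which joins acetyl-CoA to oxaloacetate, differed by 0.37 ± 0.16, and its 3 probe sets gave 0.29 to 0.38. Fh1, fumarate hydratase, differed by 0.36 ± 0.09, with control arrays between 11.35 and 11.44 and YY1bKO arrays between 11.68 and 11.80. Mdh2, mitochondrial malate dehydrogenase, which closes the cycle, differed by 0.25 ± 0.11 and its groups were only 0.06 apart. Of the succinyl-CoA synthetase genes, the ADP-forming subunit Sucla2 differed by 0.52 ± 0.17 and the shared alpha subunit Suclg1 by 0.34 ± 0.10. Suclg2, the GDP-forming partner of Suclg1, differed by 0.08 ± 0.14 (95% confidence interval -0.26 to 0.42) and its arrays overlapped.

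**Figure D2:**
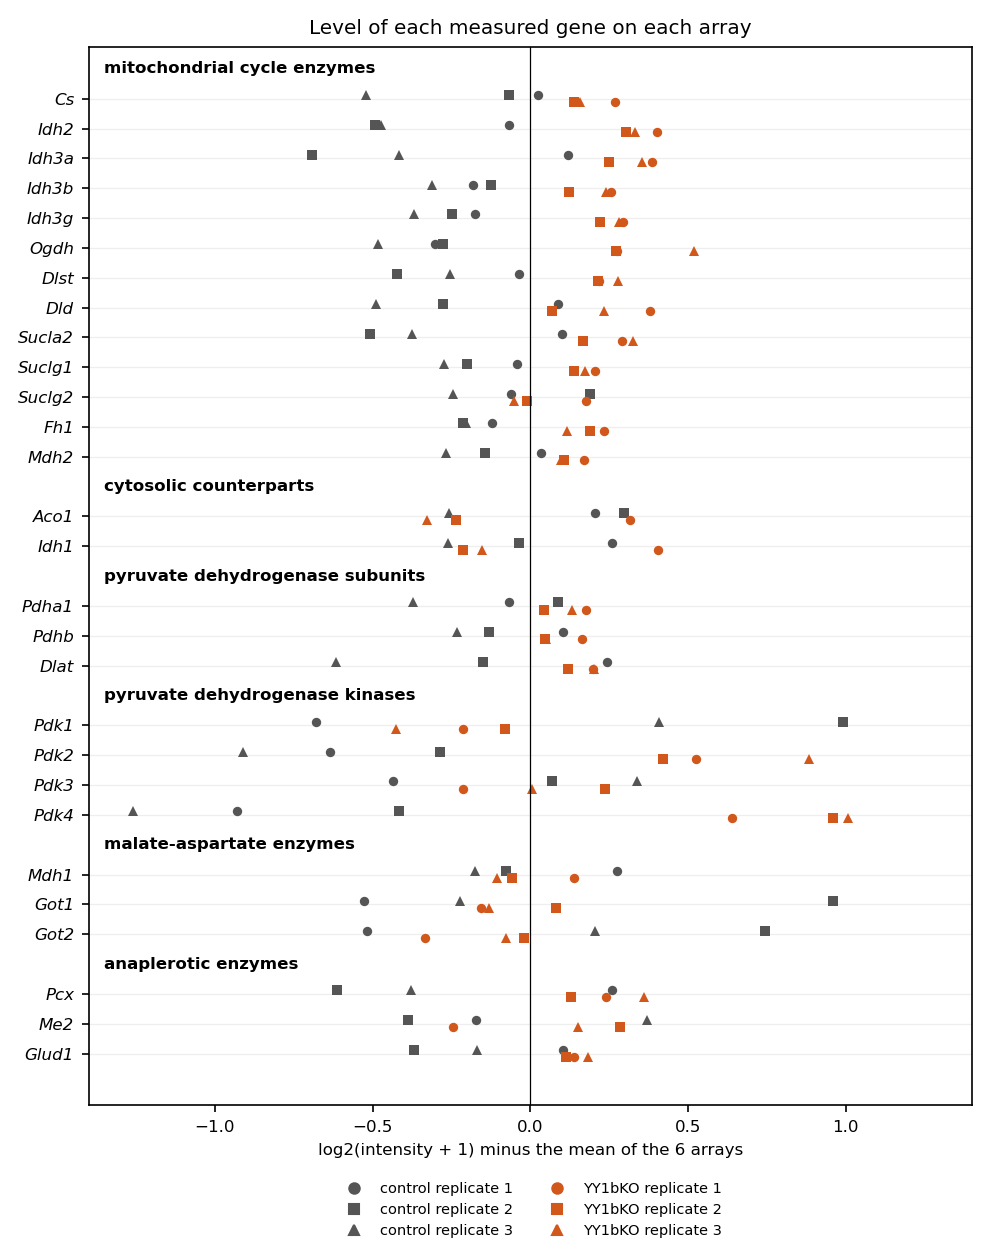
Level of each measured gene on each of the 6 arrays, as log2(intensity + 1) minus that gene's mean over the arrays. Symbols give the replicate and colours the group: in the upper block the YY1bKO arrays lie to the right of the controls except for Dld and Suclg2, and control replicate 1 is the highest control in 10 of 13 enzymes.

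The control arrays were not alike in this set. Control replicate 1 was the highest control in 10 of the 13 cycle enzymes, and control replicate 3 the lowest in 8. The mean over the 13 enzymes, each centred on its own mean, was -0.05, -0.27 and -0.36 in control replicates 1 to 3, against 0.27, 0.17 and 0.23 in YY1bKO replicates 1 to 3, so the groups did not overlap. The SD was larger in control than in YY1bKO fat for 24 of the 28 members, where 74% of all genes showed the same.

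Promoter letters were read from 250 bases before to 50 after each RefSeq start, which were available for 30 of the 33 genes. The YY1 core CCATNTT occurred, on either strand, in the window of 5 of these 30 genes (16.7%) and of 17.2% of the 9888 measured genes with a window. Those 5 were the cycle genes Cs, Idh3b, Idh3g, Ogdh and Sucla2, of 12 cycle genes with a window, and in Ogdh the match lay at 2 of its later starts. The oestrogen-related receptor letters TNAAGGTCA occurred in 0 of the 30 and in 1.06% of measured genes, the NRF1 motif in Dld and Sucla2 and in 9.35%, and CCGGAAGT (GABP or ETS) in Dlst and in 7.23%, with no overlap between matches. A match shows letters only, not binding. The 250 bases before the start of Idh3g and Cs are shown because they hold the YY1 core upstream of the start, written 5′ to 3′ along the gene with the core in capitals (RefSeq, GRCm38.p6). The first base of the match lies at -130 in Idh3g, on the opposite strand, and at -65 in Cs.
Idh3g (chrX:73786898-73787147, minus strand): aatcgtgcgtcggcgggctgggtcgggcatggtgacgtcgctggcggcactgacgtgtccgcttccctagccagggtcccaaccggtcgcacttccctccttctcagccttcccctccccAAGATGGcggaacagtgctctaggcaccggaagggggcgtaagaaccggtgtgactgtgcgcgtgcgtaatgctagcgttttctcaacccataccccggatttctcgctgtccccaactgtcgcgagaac
Cs (chr10:128337477-128337726, plus strand): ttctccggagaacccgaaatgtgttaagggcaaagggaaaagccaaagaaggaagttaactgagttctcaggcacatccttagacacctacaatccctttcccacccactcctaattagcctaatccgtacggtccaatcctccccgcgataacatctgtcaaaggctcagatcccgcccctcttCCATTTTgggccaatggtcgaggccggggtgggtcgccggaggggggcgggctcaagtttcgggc

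The cytosolic counterparts of cycle enzymes had differences near 0. Idh1, the cytosolic NADP-dependent isocitrate dehydrogenase, had log2 values of 12.57, 12.28 and 12.05 in control and of 12.72, 12.10 and 12.16 in YY1bKO fat. Replicate 1 was the highest in both groups and the groups overlapped, with a difference of 0.03 ± 0.21 (SE; 95% confidence interval -0.50 to 0.55). Aco1, the cytosolic aconitase that also acts as an iron-responsive RNA-binding protein, had 12.22, 12.32 and 11.76 against 12.33, 11.78 and 11.69. Its difference was -0.16 ± 0.23, and its other probe set gave 0.12, so no direction can be given. These intervals are wide enough to include the differences of Fh1 and Cs.

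Ratios of paralogues within an array set the transcript of a mitochondrial enzyme against that of its cytosolic form. Only their change between groups can be read, since the probe sets differ in brightness. That change follows from the differences of the single genes and does not measure enzyme content of a compartment. The log2 ratio of Idh2 over Idh1 was -2.78, -2.91 and -2.66 in control and -2.46, -1.94 and -1.97 in YY1bKO fat. The groups did not overlap, and the mean ratio was 0.66 higher in YY1bKO fat. The ratio of Mdh2 over Mdh1 was 0.05, 0.22 and 0.20 against 0.32, 0.46 and 0.49, a difference of 0.27 with no overlap. With the mean of all probe sets per gene it was 0.25. The 4 probe sets of Mdh1 differed by -0.05 to 0.20 and those of Mdh2 by 0.25 to 0.35. The size of this change and its lack of overlap therefore depend on the Mdh1 probe set used. The ratio of Got2 over Got1 overlapped, with a difference of -0.15 that became 0.03 without control replicate 3. With 3 arrays against 3 an exact 2-sided permutation test cannot give less than 0.1, so these ratios are given as values.

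**Figure D3:**
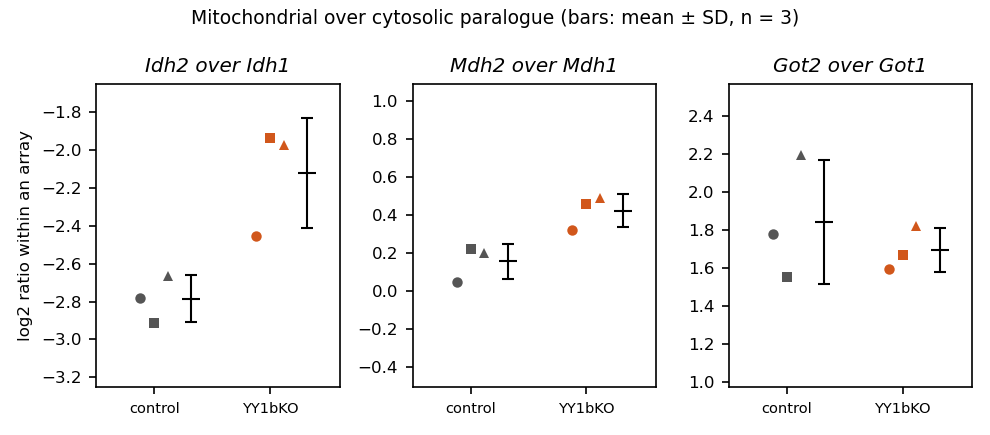
Log2 ratio of a mitochondrial enzyme over its cytosolic paralogue within each array, for isocitrate dehydrogenase, malate dehydrogenase and aspartate aminotransferase, with mean ± SD (n = 3). The YY1bKO arrays lie above the controls for Idh2 over Idh1 and Mdh2 over Mdh1 and overlap them for Got2 over Got1. Each gene is represented by a single probe set, and the result for Mdh2 over Mdh1 depends on that of Mdh1.

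Of the pyruvate dehydrogenase subunits, 3 were measured. All 3 had a higher mean in YY1bKO fat, with a median of 0.23, but in each the arrays overlapped and 0 had an unadjusted p under 0.05 by limma. Pdha1, the E1 alpha subunit on which the kinases act, had log2 values of 11.66, 11.82 and 11.35 in control and of 11.90, 11.77 and 11.86 in YY1bKO fat, a difference of 0.23 ± 0.14 (SE). Control replicate 3 alone lay clearly below the rest. Pdhb, the E1 beta subunit, had 11.54, 11.30 and 11.20 against 11.60, 11.48 and 11.48, a difference of 0.17 ± 0.12. Dlat, the E2 core of the complex, had 10.45, 10.06 and 9.60 against 10.41, 10.33 and 10.41, a difference of 0.35 ± 0.22. Its controls spread over 0.43 (SD) and its YY1bKO arrays over 0.05. Without control replicate 3 the median of the 3 subunits was 0.11.

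The kinase genes Pdk4 and Pdk2 showed the largest differences of the 28 members, while the other kinases did not follow them. Pdk4 and Pdk2 were higher in YY1bKO fat without overlap, Pdk3 was level, and Pdk1 had a lower mean with wide scatter in the controls. Pdk4, the kinase induced by fasting and by fatty acid use, had intensities of 1500.1, 2141.1 and 1194.6 in control and of 4454.2, 5561.4 and 5748.8 in YY1bKO fat. The lowest YY1bKO array lay 1.06 log2 units above the highest control, control replicate 2. The mean went from 10.61 ± 0.42 to 12.35 ± 0.20 (SD, n = 3 each), a difference of 1.74 ± 0.23 (SE) or 3.33-fold, with a 95% confidence interval of 1.17 to 2.30. Pdk4 had the smallest p of the members, ranked 26th of all genes, and did not pass after adjustment (limma adjusted p = 0.128). Without control replicate 2 the difference was 1.96 (limma adjusted p = 0.0679), and over all alternatives it ran from 1.54 to 2.08 and the adjusted p from 0.0679 to 0.691.

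Pdk2, the kinase that is widely expressed in insulin-responsive tissues, had intensities of 80.3, 102.5 and 66.2 in control and of 180.8, 168 and 231.8 in YY1bKO fat. The groups were 0.71 log2 units apart, and all controls lay below the median probe set of their array, which was 123.15 to 130.35. The difference was 1.22 ± 0.20 (SE), 2.33-fold, with an adjusted p of 0.147 by limma.

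Pdk1, a target of hypoxia signalling in many tissues, had log2 values of 8.20, 9.87 and 9.28 in control and of 8.66, 8.79 and 8.45 in YY1bKO fat. All YY1bKO arrays lay inside the range of the controls. The difference of -0.48 ± 0.41 (SE; 95% confidence interval -1.48 to 0.52) became -0.10 without control replicate 2, which held the highest value together with the high epithelial list mean, and -0.94 without control replicate 1. The part of other tissue in these values was not tested. Pdk3 differed by 0.02 ± 0.23 and its arrays overlapped. The log2 ratio of Pdk4 over Pdk1 was 2.36, 1.20 and 0.94 in control and 3.46, 3.65 and 4.04 in YY1bKO fat, higher by 2.22 without overlap.

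**Figure D4:**
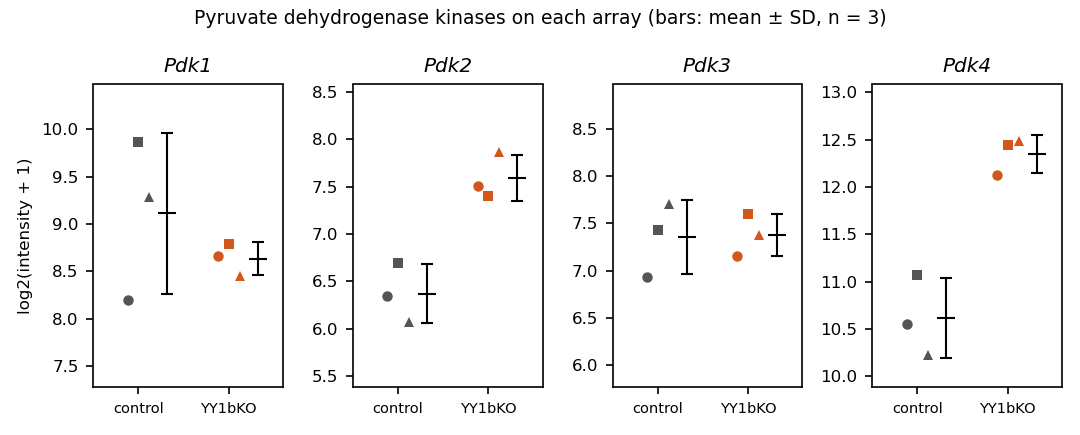
Log2(intensity + 1) of the 4 pyruvate dehydrogenase kinase genes on each array, with mean ± SD (n = 3) beside the points and axes of equal span. Pdk2 and Pdk4 do not overlap between groups, while the YY1bKO values of Pdk1 and Pdk3 lie within the range of the controls.

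The promoter window of Pdk4 is shown as that of the member with the largest difference. It held none of the 4 sets of letters searched, so it has no capitals (RefSeq, GRCm38.p6, 250 bases before the start, 5′ to 3′).
Pdk4 (chr6:5496279-5496528, minus strand): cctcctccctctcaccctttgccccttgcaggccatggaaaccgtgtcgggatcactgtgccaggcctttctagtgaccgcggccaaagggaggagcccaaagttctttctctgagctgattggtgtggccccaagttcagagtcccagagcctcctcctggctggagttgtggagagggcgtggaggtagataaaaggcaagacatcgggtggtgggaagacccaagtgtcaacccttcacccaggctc

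The malate-aspartate enzymes that are not part of the cycle had no higher mean in YY1bKO fat. Mdh1, cytosolic malate dehydrogenase, had log2 values of 12.89, 12.53 and 12.44 in control and of 12.75, 12.55 and 12.51 in YY1bKO fat, a difference of -0.02 ± 0.15 (SE). Its 4 probe sets gave -0.05 to 0.20, so its sign depends on the probe set. Got1, the cytosolic aspartate aminotransferase, had 6.76, 8.25 and 7.07 against 7.14, 7.37 and 7.16. Got2, the mitochondrial form, had 8.54, 9.80 and 9.27 against 8.73, 9.04 and 8.98. In both genes control replicate 2 was the highest array, and the YY1bKO values lay inside the range of the controls. Differences were -0.14 ± 0.38 and -0.29 ± 0.32, and without control replicate 2 they were 0.31 and 0.01. The highest array was control replicate 2 in 4 of the 28 members, where 14.3% of all genes showed it, and that array also had the high epithelial list mean; its part in these values was not tested.

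All 3 measured anaplerotic enzymes had higher means in YY1bKO fat, with a median of 0.29, and 0 had an unadjusted p under 0.05 by limma. Pcx, pyruvate carboxylase, which makes oxaloacetate for the cycle and for glyceroneogenesis in fat, had intensities of 3622.9, 1976.6 and 2327.8 in control and of 3570.1, 3310.5 and 3884 in YY1bKO fat. Control replicate 1 lay among the YY1bKO arrays and the other controls below them. The log2 difference was 0.49 ± 0.23 (SE; limma adjusted p = 0.547), and all 5 probe sets, which include the array's pyruvate carboxylase controls, were higher, by 0.14 to 0.58. Glud1, glutamate dehydrogenase, had 11.43, 10.95 and 11.16 against 11.46, 11.44 and 11.51, a difference of 0.29 ± 0.14 whose groups were only 0.01 apart. Me2, the mitochondrial NAD malic enzyme, had 7.29, 7.08 and 7.84 against 7.22, 7.75 and 7.62. It overlapped fully, and its probe sets gave -0.10 and 0.13.

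Neighbouring genes of the pathway that are not members, such as succinate dehydrogenase, lipoate synthesis, mitochondrial carriers and branched-chain keto acid breakdown, were counted from a list of 47, of which 36 were measured. Of these, 27 had a higher mean in YY1bKO fat and 9 a lower one, with a median of 0.34, where 51.0% of all genes had a higher mean. At an unadjusted p under 0.05 by limma, 16 were higher and 0 lower, against 8.45% and 1.99% of all genes, and 0 passed after adjustment. Pck1, the carboxykinase that turns oxaloacetate into phosphoenolpyruvate for glyceroneogenesis, went from 11.59 ± 0.05 to 12.41 ± 0.06 (SD, n = 3 each; limma adjusted p = 0.0598). Sdhb, the iron-sulphur subunit of succinate dehydrogenase, differed by 0.52 ± 0.09 (SE), Bckdk, the kinase of branched-chain keto acid dehydrogenase, by 0.59 ± 0.10, and Abat, which degrades GABA to succinate semialdehyde, by 0.79 ± 0.14. Among the lower genes, the smallest p belonged to Slc25a13, an aspartate-glutamate carrier (-0.86 ± 0.39), followed by Acss2, which makes cytosolic acetyl-CoA from acetate (-0.38 ± 0.28). The controls of Slc25a13 were 5.27, 6.51 and 4.95, with the highest value again in control replicate 2, and its YY1bKO values lay below the lower quartile of each array.

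The list means of brown and beige adipocyte markers and of cycle enzymes were both higher in every YY1bKO array than in every control array. Of the single genes, 5 of the 7 markers and 11 of the 13 enzymes lay higher without overlap, against 11.5% of all genes. Among the markers, Cidea and Dio2 overlapped between groups. The mean of the 7 marker genes, centred like the cycle mean, was -0.76, -0.91 and -1.25 in control fat, against 0.91, 1.03 and 0.97 in YY1bKO fat. Within the controls both means were highest in replicate 1 and lowest in replicate 3, while within YY1bKO fat replicate 1 had the highest cycle mean and the lowest marker mean and replicate 2 the reverse. The white adipocyte mean was 0.24, -0.30 and -0.17 in control fat, against 0.14, -0.05 and 0.15 in YY1bKO fat, so it overlapped. The skeletal muscle list was high in YY1bKO replicate 1, and without that array the median of the 13 cycle enzymes was 0.39. The difference was then smaller in 11 of the 13, with Dld at 0.38 and Suclg2 at 0.0078, and larger in Ogdh, at 0.75, and Dlst. At an unadjusted p under 0.05 by limma 7 of the 13 were left, without Idh3a, Dld and Sucla2, and 5.02% of all genes were then higher. The same 7 were left without control replicate 3 (7.29% of all genes) or YY1bKO replicate 3 (4.55%). The count was 12, 8 and 10 without control replicate 1, control replicate 2 and YY1bKO replicate 2 (13.2%, 6.79% and 7.26%). Without both YY1bKO replicate 1 and control replicate 2 the median was 0.39. In that fit 7 members had an unadjusted p under 0.05 by limma, all higher, against 3.71% of all genes. The part of muscle or epithelial cells in these differences was not tested.

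**Figure D5:**
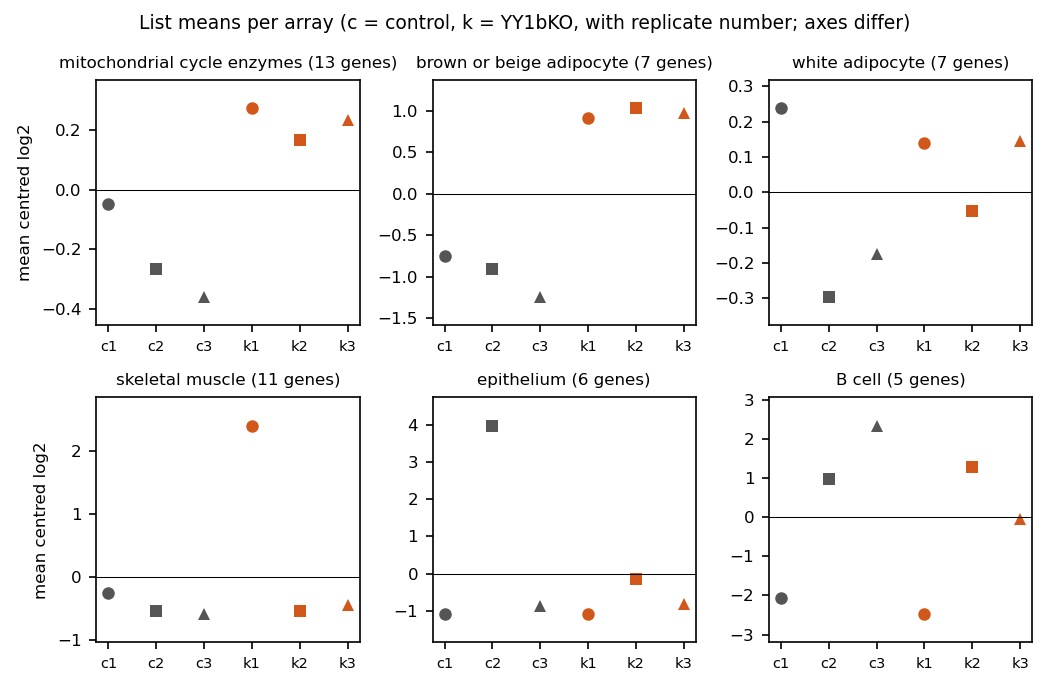
Mean of centred log2 values on each array for the 13 mitochondrial cycle enzymes and for 5 lists of cell type markers (c, control; k, YY1bKO; number, replicate; vertical axes differ between panels). The means of cycle enzymes and of brown or beige markers do not overlap between groups. The muscle list stands at 2.41 in k1, and the epithelial list at 3.98 in c2.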

How the data were processed

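Total RNA from subcutaneous fat was extracted with Trizol, labelled with biotin and hybridised to Affymetrix arrays, as the labels' protocols state. Deposited values are intensities per probe set, made by the authors with RMA, per the submitters' processing notes; their linear scale was read from the values, and no version of RMA is given in the sources used here. RMA makes arrays alike in distribution, so these values cannot show a change in total RNA. Gene symbols came from the annotation table of the platform: 20393 of 22690 probe sets carried 1 symbol, and those with several or none were left out. Values were transformed as log2(intensity + 1) and fitted with limma 3.58.1 in R 4.3.3 over all 12394 genes, 3 arrays against 3, with 2-sided p-values adjusted by Benjamini-Hochberg at 0.05. The fit was tested on simulated data. Dim probe sets were kept. Members and gene lists were chosen with earlier results of these data known. All members are named, and of other pathway genes the 4 higher and 2 lower with the smallest p. Values in every array are given for up to 3 members per role with the smallest p. Role medians are descriptions with no test. Alternatives covered scaling, dim filters, probe set summary, pseudocount, eBayes options, array weights, a replicate block and left-out arrays.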

Additional observations from a re-analysis of the deposited data

How the results depend on the processing

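No member passed an adjusted p of 0.05 by limma in any of the 18 alternatives, so the count of 0 held, beside 12 at an unadjusted p under 0.05. That count of 12 higher members lay between 9 and 18 when 1 array was left out, with the highest count without control replicate 1 (13.2% of all genes then), and 9 of the 12 were in the count with each array left out. It was 7 without both control replicate 2 and YY1bKO replicate 1 (3.71% of all genes), and 6 without both control replicate 3 and YY1bKO replicate 1 (4.2%), the latter chosen after seeing the data; these fits hold fewer arrays. The lower count of 0 became 2 without control replicate 1 (Pdk1 and Got2) and 1 in the added alternative (Aco1). The share of all genes that were lower was 1.99% with all arrays. It was not computed for these 2 fits, so their lower counts cannot be set against it. The median of the cycle enzymes lay between 0.36 and 0.57 without 1 array. Members without overlap then numbered 14 to 18, a count that leaving out an array can only keep or raise. It was 18 without control replicate 1, where 24.4% of all genes also lay higher without overlap (13.6% to 17.4% without another single array). It was 13 after quantile normalization (11.4% of all genes), with array medians subtracted (11%) and without probe sets below the 50th percentile (15.8%). The kinase median was 0.019 without probe sets below the 50th percentile, because Pdk2 left the fit. That of the cytosolic counterparts was -0.41 in the added alternative; the cause was not tested. Medians without 1 array ran from 0.11 to 0.34 for pyruvate dehydrogenase subunits, 0.51 to 0.72 for kinases, -0.44 to 0.014 for malate-aspartate, 0.18 to 0.41 for anaplerotic enzymes and -0.27 to 0.034 for cytosolic counterparts.

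Signs changed for Idh1, Mdh1, Pdk3, Got1, Got2, Suclg2 and Me2, whose differences were near 0 or whose controls were scattered. Idh1 was -0.011 after quantile normalization. Mdh1 was 0.049 as the mean of its probe sets and 0.0053 with array weights, and Pdk3 was -0.061 with array weights. Over the fits with 1 or 2 arrays left out, the differences ran from -0.29 to 0.16 for Idh1, -0.18 to 0.12 for Mdh1, -0.19 to 0.30 for Pdk3, -0.44 to 0.35 for Got1, -0.62 to 0.11 for Got2, -0.096 to 0.19 for Suclg2 and -0.035 to 0.50 for Me2. Without both control replicate 2 and YY1bKO replicate 1, Idh1 was -0.18. The causes were not tested. The labels do not say whether replicate numbers pair the samples. Same-numbered arrays deviated together with correlations of 0.61, 0.10 and 0.03, and 3 of 6 arrays correlated best with their own number. These few values cannot decide whether samples were paired. With the replicate block 13 members were higher at an unadjusted p under 0.05 by limma, against 8.61% of all genes. After adjustment 0 members passed in that fit, and 1 of the 12394 genes did. The 3 arrays per group limit every value.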
